A study of Mus musculus with 19 samples.

Results

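Genes of DNA replication and S phase were followed in mouse hippocampal microglia, the resident macrophages of the brain. The set was a list of 51 gene symbols of known function, and all 51 had a row in both deposited expression tables, each of 23951 genes. The list covers the proteins that license origins, unwind DNA, load the sliding clamp, synthesise and join the strands, supply nucleotides, restore chromatin behind the fork, and switch the programme on. RNA was measured by sequencing in 15 libraries of microglia sorted for CD11b and CD45, in 5 groups of 3. A further 4 samples, of chromatin immunoprecipitation, were not analysed here.

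A replication fork is built in steps. Origins are first licensed by the origin recognition complex with Cdc6 and Cdt1, which load the MCM helicase, and the helicase is then activated by Cdc45 and the GINS complex. The genes for these proteins are classical targets of E2F transcription factors, which are held inactive by the retinoblastoma protein family until cyclin-dependent kinases release them. Adult microglia divide rarely, and they proliferate when they repopulate the brain or respond to damage.

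All mice carried Cx3cr1CreER+/-, a tamoxifen-inducible Cre recombinase under the promoter of the fractalkine receptor gene, which is active in microglia and also in other mononuclear phagocytes, and all received tamoxifen at 50 mg/kg on 5 days. In the 3-month table, PU.1 fl/fl; Cx3cr1CreER+/- mice (PU.1 cKO) were set against Cx3cr1CreER+/- controls, with tissue taken 1 week after tamoxifen. The floxed gene, Spi1, encodes PU.1, a transcription factor of the myeloid lineage. In the 4.5-month table the groups were CK controls, CK-p25, and CK-p25 with PU.1 fl/fl (CK-p25 PU.1 cKO), with tamoxifen given at p25 induction and tissue taken 6 weeks later. CK-p25 mice express p25, an activator of the kinase Cdk5, in forebrain neurons under the control of a transactivator, and CK mice carry the transactivator without p25.

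The labels of the 3-month table contradict each other. The sample titles and genotypes were followed, but the columns of the samples titled as controls are named for PU.1 in the table, and the source name points the other way as well. The groups are therefore called labelled control and labelled PU.1 cKO, and under the other reading each 3-month direction turns. Spi1 went against the titles, since all 3 labelled PU.1 cKO libraries lay above the labelled control: it measured 261, 105 and 248 against 409, 338 and 337 FPKM, labelled control first (log2 difference 0.92 ± 0.35, adjusted p = 0.0853 in limma, from 0.0126 to 0.201 over the alternatives). In the 4.5-month table, CK libraries had Spi1 at 256, 229.7 and 251 FPKM, CK-p25 libraries at 251, 208 and 298, and CK-p25 PU.1 cKO libraries at 165, 152 and 224. There the last group was -0.46 ± 0.17 on the log2 scale against CK (adjusted p = 0.0751, from 0.00495 to 0.224 over the alternatives) and -0.49 ± 0.17 against CK-p25 (adjusted p = 0.745). The labels do not say which exons are removed, so Spi1 checks the deletion only in part. Microglial genes were abundant in every library, with 8 markers summing to between 6882 and 28557 FPKM. Values are FPKM, fragments scaled to transcript length and library size, and the read depth behind them is unknown. The libraries had 10140 to 10954 genes at 1 FPKM or more, and CK-p25 replicate 3 stood apart in its table, with a run code in the labels unlike that of the other 4.5-month libraries and 42.1% of genes listed at 0 (31.6% to 36.4% in the others).

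Promoters of the set often held the letters that E2F factors recognise, which is why 5 stretches are printed before the values. Promoter windows of 300 bases, from 250 before to 50 after the RefSeq gene start (build GRCm38.p6), were matched for 43 of the 51 genes. The forms TTTCCCGC, TTTGGCGC, TTTCGCGC and TTTGCCGC of the E2F element were searched on both strands, and matches of different forms can overlap. They occurred in 17 of the 43 genes (39.5%), against 3.22% of 16745 genes of the tables with a window. In the stretches below, read 5′ to 3′ on the gene's strand, capitals mark these letters, which overlap in Mcm5 and Mcm6.
Cdc6, chr11:98907981-98908080, plus strand: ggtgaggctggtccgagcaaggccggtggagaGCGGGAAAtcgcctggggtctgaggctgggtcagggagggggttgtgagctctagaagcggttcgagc
Orc1, chr4:108579354-108579453, plus strand: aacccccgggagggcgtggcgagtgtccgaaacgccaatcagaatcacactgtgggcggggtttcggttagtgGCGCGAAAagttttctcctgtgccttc
Mcm5, chr8:75109314-75109413, plus strand: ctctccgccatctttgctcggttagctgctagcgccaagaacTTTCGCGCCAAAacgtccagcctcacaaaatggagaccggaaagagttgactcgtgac
Mcm6, chr1:128359731-128359830, minus strand: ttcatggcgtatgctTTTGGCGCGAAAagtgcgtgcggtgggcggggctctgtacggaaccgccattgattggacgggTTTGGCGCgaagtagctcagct
Uhrf1, chr17:56304083-56304182, plus strand: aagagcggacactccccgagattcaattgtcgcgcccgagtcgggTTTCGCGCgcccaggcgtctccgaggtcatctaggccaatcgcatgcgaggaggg
Each stretch is 100 bases long and ends before the gene start. The other 12 genes with a match were Cdt1, Clspn, Dnmt1, E2f2, Gins3, Lig1, Mcm3, Mcm7, Pola1, Pold1, Pole2 and Rfc3. A CCAAT box (CCAAT) was present in 62.8% of the 43 genes against 42.1% of all. The mitotic CHR element (TTTGAA) was present in 18.6% against 17.7%, while 11 of 14 mitosis genes with a window (78.6%) held it and 1 of those 14 held E2F letters. The PU.1 form GAGGAAGT was in the windows of 0 of 43 genes against 3.6% of all genes, which says only that these letters are not there. The windows of the set averaged 59.6% G and C, against 56.6% in all genes. The 17 genes with E2F letters had 3-month ratios (below) with a median of 7.26, from 2.32 to 59.5, and the 26 without them a median of 9.18, from 1.70 to 145. These are matches of letters and not measured binding.

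At 3 months the 51 genes stood far higher in the labelled control than in the labelled PU.1 cKO. Summed over the 51 genes, levels were 2204, 1331 and 2891 FPKM in labelled control replicates 1, 2 and 3 and 441, 382 and 367 FPKM in the labelled PU.1 cKO, a mean of 2142 ± 782 (SD, n = 3) against 397 ± 38.8 and a ratio of 5.40. All 3 labelled control libraries lay above all 3 labelled PU.1 cKO libraries for 51 of 51 genes. Over all 10845 genes tested, which include 50 of the 51, the groups did not overlap in that direction in 26.9%, and 21.9% did not overlap in the other. Of the 50 genes whose mean over the 6 libraries was 1 FPKM or more, 50 were lower in the labelled PU.1 cKO and 0 higher in limma (adjusted p under 0.05), against 17.8% and 12.4% of all genes tested. Their log2 differences, labelled PU.1 cKO minus labelled control on log2(FPKM + 1), had a median of -2.28, against -0.03 over all genes, and ran from -6.16 for Rrm2 to -0.70 for Pola2. For 14 of the 50, the mean in the labelled PU.1 cKO was under 1 FPKM, so they entered the test only through the labelled control. These were Orc1, Cdc6, Mcm10, Pole, Pole2, Exo1, Uhrf1, Chaf1a, Ccne1, Ccne2, E2f2, E2f8, Brca1 and Chek1, and their p values carry that selection. The remaining 36 were at or above it in both groups. The set itself was chosen with earlier results of these data known. The gene below the filter, Clspn, a mediator of the checkpoint kinase Chk1, measured 2.24, 1.56 and 1.79 against 0, 0.0714 and 0.294 FPKM.

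**Figure D1:**
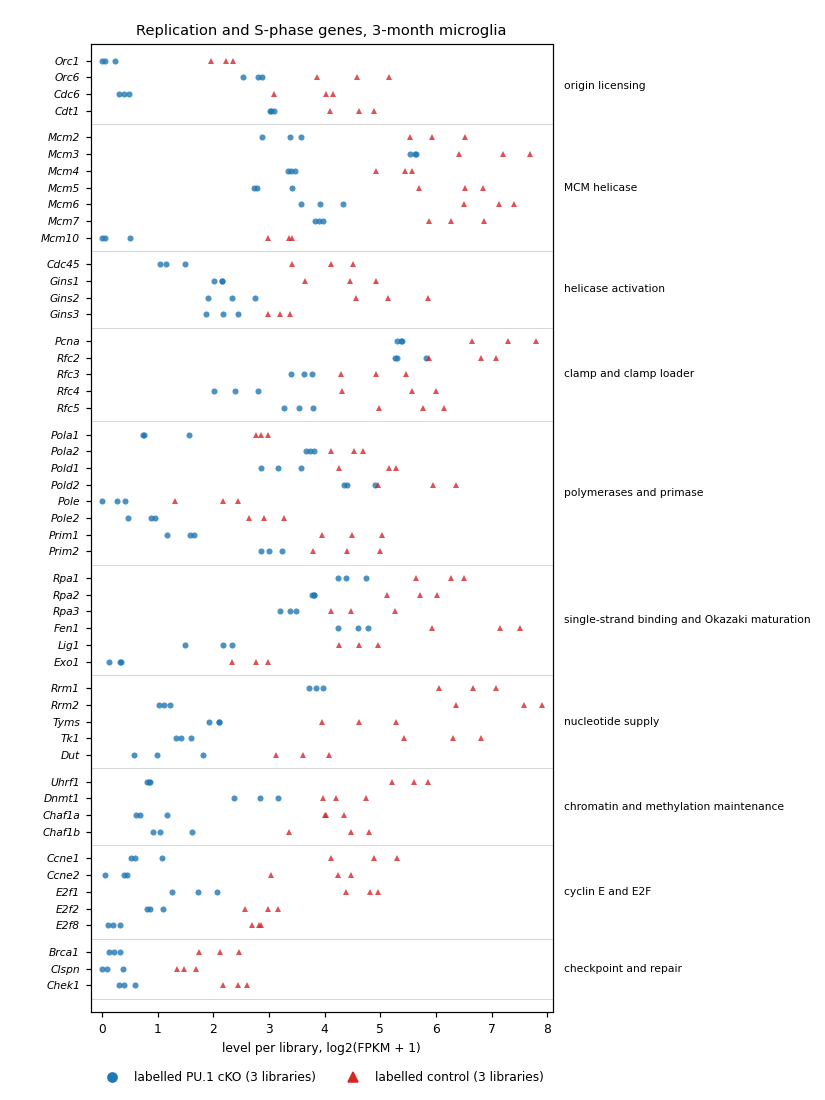
Levels of the 51 genes in each 3-month library, as log2(FPKM + 1), grouped by role, with circles for the 3 labelled PU.1 cKO libraries and triangles for the 3 labelled control libraries. In 51 of 51 rows the triangles lie to the right of the circles, although the gap is narrow for Rfc2 and Pold2.

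The ratio of means, labelled control over labelled PU.1 cKO, ran from 1.70 for Pola2 to 145 for Rrm2, with a median of 8.1. At least 10-fold ratios were found in 20 genes and at least 5-fold ratios in 34. Within the labelled control, replicate 2 was the lowest library for 47 of the 51 genes and replicate 3 the highest for 42. In the values below, replicates 1, 2 and 3 of the labelled control come before those of the labelled PU.1 cKO.

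Origin licensing genes were all lower in the labelled PU.1 cKO, against 17.8% of all genes tested. Orc1, the subunit of the origin recognition complex that comes and goes with the cell cycle, measured 4.15, 2.89 and 3.7 against 0.18, 0.0405 and 0 FPKM. Cdc6, the licensing ATPase, measured 15.2, 7.54 and 16.8 against 0.322, 0.394 and 0.236 FPKM (log2 difference -3.36 ± 0.31, adjusted p = 0.00058). Both were thus under 0.5 FPKM in the labelled PU.1 cKO and above 2 in each labelled control library. Both entered the test only through the labelled control. Orc6, another subunit of the complex, stayed measurable in both groups, with 23, 13.6 and 34.7 against 6.02, 4.78 and 6.33 FPKM. Cdt1, the partner of Cdc6 in helicase loading, measured 23.6, 16.1 and 28.6 against 7.07, 7.49 and 7.25 FPKM. Cdt1 was even across the labelled PU.1 cKO libraries and had the highest mean of the 4 there.

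The MCM helicase, the ring that unwinds DNA, was measured through its subunits Mcm2 to Mcm7 and the initiation factor Mcm10. Mcm2 measured 60.2, 45.2 and 90.6 against 10.9, 9.44 and 6.32 FPKM. Mcm3 measured 146, 84.2 and 206 against 48.5, 48.9 and 45.2 FPKM. Mcm4 was at 42.3, 29.5 and 46.5 against 10.1, 9.1 and 9.53 FPKM. Mcm3 kept the highest level of the ring in the labelled PU.1 cKO. Mcm5 measured 90.6, 50.6 and 114 against 9.63, 5.65 and 5.87 FPKM (log2 difference -3.38 ± 0.33, adjusted p = 0.000747). For Mcm6 the values were 139.6, 90.4 and 169 against 19.2, 14.1 and 10.9 FPKM (log2 difference -3.08 ± 0.29, adjusted p = 0.000643). Mcm7 was at 76.5, 58.1 and 116 against 14.6, 13.2 and 14 FPKM. Labelled control replicate 2 was the lowest of its group for each of these 6 subunits. Mcm10 measured 9.63, 6.96 and 9.3 against 0.0385, 0.415 and 0 FPKM (log2 difference -3.07 ± 0.25, adjusted p = 0.000367), a gene listed at 0 in a library of the labelled PU.1 cKO. Mcm10 entered the test only through the labelled control. The ratio of means was 3.06 for Mcm3 and 12.1 for Mcm5, and whether subunits of the ring differed in size of change was not tested.

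Helicase activation was measured through Cdc45 and the GINS subunits. Cdc45 measured 16.3, 9.64 and 21.7 against 1.05, 1.82 and 1.22 FPKM. Gins1 measured 20.9, 11.5 and 29.5 against 3.44, 3.47 and 3.03 FPKM. Gins2 was at 34.3, 22.6 and 56.8 against 5.76, 4.08 and 2.75 FPKM. These 3 were lower in the labelled PU.1 cKO by 6.24 to 11.6 times on the ratio of means. Gins3 measured 9.39, 6.95 and 8.15 against 3.5, 4.43 and 2.66 FPKM (log2 difference -1.03 ± 0.22, adjusted p = 0.0132), the smallest ratio of the 4, 2.32.

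The sliding clamp and its loader had a median log2 difference of -1.89, against -2.28 for the set. Pcna encodes the clamp that tethers polymerases to DNA and measured 156, 99.7 and 222 against 38.7, 40.9 and 40.7 FPKM (log2 difference -1.89 ± 0.28, adjusted p = 0.00367). Its labelled PU.1 cKO libraries lay within 3 FPKM of each other. Of the clamp loader subunits, Rfc2 measured 111, 58 and 134 against 55.9, 37.6 and 38.6 FPKM (log2 difference -1.12 ± 0.33, adjusted p = 0.0398). The lowest labelled control value of Rfc2 lay close to the highest labelled PU.1 cKO value. Rfc3 was at 29.5, 18.6 and 43.1 against 11.4, 9.55 and 12.6 FPKM. Rfc4 measured 46.6, 18.8 and 63.1 against 6, 4.26 and 3.02 FPKM. Rfc5 was at 53.5, 30.6 and 69.4 against 12.8, 8.64 and 10.6 FPKM. Rfc4 had a ratio of 9.67, against 2.30 for Rfc2.

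Polymerase and primase genes were lower in the labelled PU.1 cKO in 8 of 8 cases, against 17.8% of all genes tested. Pola1, the catalytic subunit of the priming polymerase, measured 6.93, 5.82 and 6.25 against 0.689, 1.97 and 0.67 FPKM. Its partner Pola2 was at 22.1, 16.3 and 24.9 against 13, 12.4 and 11.8 FPKM (log2 difference -0.70 ± 0.20, adjusted p = 0.0324). Pola2 had the smallest difference of the set. Prim1, the catalytic primase subunit, measured 21.6, 14.4 and 31.6 against 2, 2.14 and 1.25 FPKM (log2 difference -3.03 ± 0.30, adjusted p = 0.000755). Prim2, the regulatory subunit, was at 20.1, 12.9 and 31 against 6.28, 8.4 and 6.98 FPKM. The ratio was 12.6 for Prim1 and 2.95 for Prim2. Pold1, of the lagging strand polymerase, measured 34.8, 18.1 and 38 against 11, 8.01 and 6.3 FPKM. Pold2, its accessory subunit, was at 61.1, 30.2 and 81.7 against 29, 20.0 and 19.5 FPKM (log2 difference -1.21 ± 0.36, adjusted p = 0.0418), and its groups were separated by little more than 1 FPKM. Pole, of the leading strand polymerase, measured 1.48, 4.42 and 3.52 against 0, 0.328 and 0.203 FPKM. Its partner Pole2 was at 6.56, 5.24 and 8.65 against 0.933, 0.381 and 0.855 FPKM. Pole was at most 0.328 FPKM in the labelled PU.1 cKO. Pole and Pole2 averaged under 1 FPKM there and entered the test only through the labelled control.

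Genes that protect single strands and join Okazaki fragments followed. Replication protein A coats single strands, and its large subunit Rpa1 measured 76.2, 48.8 and 89.6 against 25.7, 20.0 and 18 FPKM. The middle subunit Rpa2 was at 51.4, 33.8 and 63.6 against 13.1, 12.7 and 13 FPKM. The small subunit Rpa3 was at 21.2, 16.4 and 37.3 against 8.14, 9.4 and 10.3 FPKM. Their ratios lay between 2.69 and 3.83, at the small end of the set. Fen1, the flap endonuclease, measured 142, 59.7 and 181 against 26.6, 17.9 and 23.2 FPKM. Lig1, the ligase that seals nicks, measured 23.6, 18.1 and 30.0 against 4.08, 3.53 and 1.82 FPKM. The exonuclease gene Exo1 was at 5.78, 4.04 and 6.95 against 0.263, 0.257 and 0.0962 FPKM. Fen1 was the most abundant of the 6 in the labelled control, and Exo1 was under 0.3 FPKM in each labelled PU.1 cKO library.

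Nucleotide supply held the gene with the largest difference, Rrm2, while its median log2 difference was -2.76. Rrm2, the regulated small subunit of ribonucleotide reductase, measured 192, 80.9 and 240.2 against 1.34, 1.04 and 1.16 FPKM (log2 difference -6.16 ± 0.38, adjusted p = 0.000126), a ratio of 145. Rrm1, its large subunit, measured 100.5, 65.9 and 135 against 14.7, 12.1 and 13.3 FPKM, a ratio of 7.51. The groups did not overlap for either subunit. Thymidine kinase Tk1 measured 78.4, 41.8 and 112 against 1.52, 2.05 and 1.69 FPKM (log2 difference -4.73 ± 0.34, adjusted p = 0.000212). Thymidylate synthase Tyms measured 23.7, 14.5 and 38 against 3.31, 3.29 and 2.8 FPKM. The dUTPase gene Dut was at 11.3, 7.7 and 16 against 2.54, 0.497 and 0.991 FPKM. Dut was uneven within the labelled PU.1 cKO, with replicate 1 the highest.

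Chromatin and methylation maintenance genes had a median log2 difference of -3.16. Uhrf1, which recruits the maintenance methyltransferase to hemimethylated DNA, measured 47.8, 36.1 and 57.2 against 0.828, 0.748 and 0.796 FPKM (log2 difference -4.72 ± 0.21, adjusted p = 5.42e-05). Dnmt1, that methyltransferase, measured 14.6, 26 and 17.6 against 4.21, 7.97 and 6.19 FPKM, with labelled control replicate 2 the highest library. No labelled PU.1 cKO library of either gene reached the labelled control. Chaf1a, the large subunit of a histone chaperone, measured 15, 15.3 and 19.3 against 0.612, 1.24 and 0.534 FPKM. Chaf1b, its partner, was at 21.2, 9.32 and 26.9 against 2.07, 1.06 and 0.895 FPKM. Uhrf1 is 1 of the 14 genes that entered the test only through the labelled control, and its 3 labelled PU.1 cKO values lay within 0.1 FPKM of each other.

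Cyclin E and E2F genes switch the programme on. Ccne1 measured 28.5, 16.3 and 38.5 against 0.505, 1.1 and 0.437 FPKM (log2 difference -4.04 ± 0.33, adjusted p = 0.000367). Ccne2 was at 17.8, 7.23 and 21.3 against 0.359, 0.322 and 0.0452 FPKM (log2 difference -3.62 ± 0.39, adjusted p = 0.00103). Both were low in each labelled PU.1 cKO library and entered the test only through the labelled control. E2f1, an activating E2F, measured 27.3, 20.0 and 30.3 against 1.4, 3.2 and 2.3 FPKM. E2f2, another activator, was at 6.89, 4.92 and 7.96 against 0.754, 1.15 and 0.816 FPKM. E2f8, a repressive E2F that is itself an E2F target, measured 6.25, 5.51 and 6.06 against 0.0726, 0.261 and 0.146 FPKM. Checkpoint and repair genes were low in the labelled PU.1 cKO. The repair gene Brca1 measured 3.33, 4.51 and 2.34 against 0.157, 0.247 and 0.099 FPKM. Chek1, the kinase that restrains S phase after damage, was at 4.45, 3.51 and 5.08 against 0.515, 0.32 and 0.24 FPKM.

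Of the 50 calls, 43 were kept in each of the 13 alternatives that tested them, and 7 were lost in at least 1. Rfc2 and Pold2 were lost without labelled control replicate 1 or 3 or any labelled PU.1 cKO replicate, with no filter and after median centring, and their adjusted p ranged from 0.00319 to 0.132 and from 0.00289 to 0.13. Pola2 was lost without the same libraries and after median centring. Gins3 was lost without labelled control replicate 1 or labelled PU.1 cKO replicate 3, and Rfc3 without labelled control replicate 1 or labelled PU.1 cKO replicate 1 or 2. Prim2 was lost without labelled PU.1 cKO replicate 1 or 3, and Rpa3 without any of the 3. Of all 3-month calls, 41.1% were higher in the labelled PU.1 cKO, 51% after median centring and 53% after quantile normalization, which moved the median over all genes from -0.03 to 0.07 and 0.09. The median of the set was then -2.18 and -2.09.

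Counts of calls in the lists below are read against the shares over all genes tested at 3 months, 17.8% lower and 12.4% higher. Like the set, these lists were chosen with earlier results of these data known, so they are no independent check on it. Mitosis genes, kept as a separate list, moved in the same direction. All 16 were lower in the labelled PU.1 cKO, with a median log2 difference of -4.68, and Top2a (57.6, 47.4 and 47.5 against 1.06, 1.09 and 0.891 FPKM), Bub1b (42.5, 37.5 and 44.3 against 0.986, 0.951 and 0.478 FPKM), Tpx2 (42.9, 27.8 and 36.9 against 0.416, 0.402 and 0.451 FPKM) and Ccnb2 (145, 79 and 151 against 0.946, 1.36 and 0.477 FPKM) had the smallest p. Of the tested genes, 7 of the mitosis list, 3 of the other replication factors, 1 of the nucleotide metabolism genes, 1 of the E2F and RB regulators and 6 of the checkpoint and repair genes averaged under 1 FPKM in the labelled PU.1 cKO and entered the test only through the labelled control, among them Bub1b, Tpx2, Ccnb2, Timeless, E2f7, Wee1 and Fanci. Of 34 other replication factors 18 were lower, 0 higher and 14 not called, with 2 below the filter. They included Gmnn (-3.46 ± 0.27), the inhibitor of Cdt1, Asf1b (-4.35 ± 0.43), Wdhd1 (-1.87 ± 0.19) and Timeless (-2.19 ± 0.22). Of 16 other nucleotide metabolism genes 9 were lower, among them Shmt2 (-2.42 ± 0.33) and Dck (-1.32 ± 0.24), and 1 was higher, the mitochondrial thymidine kinase gene Tk2 (1.71 ± 0.19). Tk2 measured 19.2, 24.6 and 16.6 against 75.5, 62.1 and 64.6 FPKM, opposite in direction to Tk1. Of 15 other E2F and RB regulators 7 were lower, led by Ccna2 (-4.38 ± 0.24), Rbl1 (-1.26 ± 0.16), Tfdp1 (-2.27 ± 0.35) and E2f7 (-1.66 ± 0.25). Of 17 other checkpoint and repair genes 7 were lower and 1 was below the filter, among them Wee1 (-3.07 ± 0.25) and Fanci (-2.40 ± 0.23). Single libraries moved some of these counts: the nucleotide metabolism count was 5 lower without labelled PU.1 cKO replicate 2 or 3 and 2 higher without labelled control replicate 2, and the E2F and RB count was 4 lower without labelled control replicate 1 and 1 higher without labelled PU.1 cKO replicate 1.

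**Figure D2:**
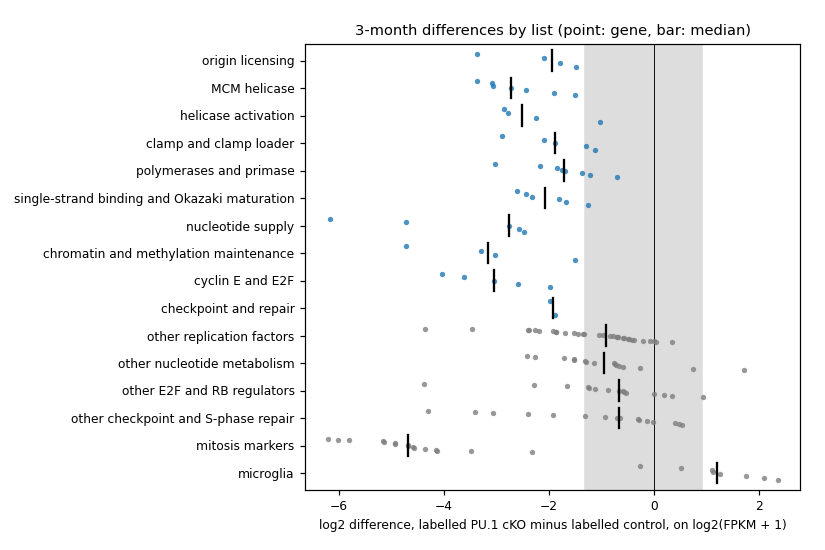
Log2 differences, labelled PU.1 cKO minus labelled control on log2(FPKM + 1), 1 point per tested gene, by list, with bars for medians and a grey band from the 10th to the 90th percentile of all 10845 genes. Role lists of the replication set (blue) lie between -6.16 and -0.70, the mitosis markers have a median of -4.68, and 6 of 8 microglial markers are higher in the labelled PU.1 cKO.

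Markers of several cell types differed alongside. The 8 microglial markers summed to 11178, 6882 and 12785 FPKM in labelled control replicates 1, 2 and 3 and to 28557, 24700.5 and 28198 in the labelled PU.1 cKO, with 6 of 8 higher there (P2ry12 at 724 against 3659 on average). The other 2, Aif1 and Ptprc, were not called. Ptprc lay wholly lower in the labelled PU.1 cKO (108, 93.2 and 105 against 92.5, 76.3 and 84.1 FPKM). Border macrophage markers (5 genes) summed to 375, 1267 and 471 against 204, 226 and 271 FPKM. Neutrophil markers (4 genes) summed to 9650 FPKM in labelled control replicate 1, 91.8 and 70.2 in the others, and 36.3 to 227 in the labelled PU.1 cKO, and monocyte markers (5 genes) reached 951 FPKM in the same replicate. Without that library 45 of 50 genes of the set were lower, against 11.9% of all genes tested in that fit. The progenitor marker Nes was at 8.6, 10.6 and 10.9 against 0.235, 0.768 and 0.366 FPKM, while 6 neuronal markers summed to at most 3.42 FPKM in this table. Astrocyte markers (6 genes) summed to 15.4, 31.2 and 16.2 against 71.4, 63.1 and 70.8 FPKM. Lymphocyte markers (7 genes) summed to 20.6, 12.4 and 17.4 against 67.1, 50.8 and 55.5 FPKM. Endothelial markers (5 genes) summed to 7.86, 15.7 and 5.91 against 17.2, 19.2 and 20.1 FPKM. All 3 sums were higher in each labelled PU.1 cKO library. By gene, only 1 of each list lay wholly higher there, and 2 astrocyte markers, Gfap and Aldh1l1, lay wholly lower. The astrocyte sum was mostly Slc1a3 (9.46, 14.7 and 10.8 against 66.6, 56.7 and 65.9 FPKM). Gfap was at 3.07, 6.95 and 2.72 against 2.18, 2.05 and 1.78 FPKM. The part of these cell types in the result was not tested. In bulk RNA, fewer cells of a type and less RNA per cell cannot be told apart.

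At 4.5 months most replication genes did not pass the test, and the few that did moved in opposite directions. In CK-p25 the clamp gene Pcna and the transcription factor gene E2f1 rose, and Rpa2, Mcm2, Orc6 and Prim1 fell. The same 6 passed in CK-p25 PU.1 cKO, where Mcm5, Mcm7 and Rrm2 fell as well. The 2 comparisons share the CK libraries and are not independent. Summed over the 51 genes, CK libraries reached 342, 324 and 308 FPKM, CK-p25 libraries 321, 323 and 378, and CK-p25 PU.1 cKO libraries 361, 326 and 306, and the ranges overlapped. Of the 51 genes, 39 had a mean over the 9 libraries of 1 FPKM or more and were tested.

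In CK-p25 against CK, 2 of 39 genes were higher and 4 lower, against 17.6% and 13.7% of 10894 genes tested. Both shares of the set are below those over all genes. Groups did not overlap for 4 of the 39 tested genes upward and 9 downward, against 24% and 22.5% of all genes tested, so the first count is below the background and the second close to it. In CK-p25 PU.1 cKO against CK, 2 were higher and 7 lower, against 17.8% and 13.3%, and the groups did not overlap for 5 upward and 13 downward, against 29.4% and 29.1%. The median log2 difference of the 39 genes was -0.12 in CK-p25 and -0.05 in CK-p25 PU.1 cKO, against 0.00 over all genes in both. In CK-p25 34 of 39 differences were within 0.5, and in CK-p25 PU.1 cKO 32.

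Pcna was at 44.4, 38.3 and 40.0 FPKM in the CK libraries. It reached 58.7, 60.4 and 51.9 FPKM with p25, and 68.8, 56.2 and 57 FPKM with p25 and PU.1 fl/fl. All CK-p25 libraries of either genotype lay above all CK libraries, with log2 differences of 0.47 ± 0.11, adjusted p = 0.0122 and 0.55 ± 0.11, adjusted p = 0.00567. E2f1 measured 3.41, 3.88 and 2.94, then 5.5, 5.95 and 6.2, then 8.25, 7.92 and 4.66, and again no CK library reached the others (0.65 ± 0.19, adjusted p = 0.032 and 0.82 ± 0.19, adjusted p = 0.0119). Pcna had the highest FPKM of the set in CK, at 40.9 ± 3.13 FPKM (SD, n = 3), while E2f1 is at 3.41 ± 0.467.

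Rpa2, the middle subunit of replication protein A, measured 10.4, 9.64 and 10.7 FPKM in CK. The CK-p25 libraries gave 6.3, 6.13 and 6.33 and the CK-p25 PU.1 cKO libraries 7.07, 7.18 and 4.64 (-0.63 ± 0.14, adjusted p = 0.0115 and -0.64 ± 0.14, adjusted p = 0.0104). It fell while its partners did not pass, since Rpa1 was at 0.06 ± 0.15 and Rpa3 at -0.11 ± 0.11 in CK-p25. Whether Rpa2 differed from its partners was not tested. The Rpa2 call was kept under all 17 alternatives in both comparisons.

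Helicase and licensing genes were split. Mcm2 measured 8.68, 8.63 and 7.35 FPKM in CK, and then 5.4, 5.51 and 6.71 with p25 and 5.99, 5.53 and 5.36 with p25 and PU.1 fl/fl (-0.43 ± 0.11, adjusted p = 0.0187 and -0.48 ± 0.11, adjusted p = 0.0113). Its groups did not overlap. Orc6 measured 6.42, 5.07 and 5.28 in CK, then 3.71, 3.66 and 4.48 with p25, then 4.1, 3.98 and 3.6 with p25 and PU.1 fl/fl (-0.41 ± 0.12, adjusted p = 0.0302 and -0.43 ± 0.12, adjusted p = 0.0259). Mcm5 measured 10.9, 8.09 and 7.62 in CK, then 6.1, 5.28 and 8.32, then 6.39, 5.16 and 5.03 in the same order, and passed only in CK-p25 PU.1 cKO (-0.59 ± 0.18, adjusted p = 0.0392, with -0.39 ± 0.18, adjusted p = 0.139 in CK-p25). Mcm7 measured 11.5, 9.82 and 9.43 in CK, then 6.97, 7.97 and 10.6, then 7.16, 6.75 and 7.28, with -0.48 ± 0.14, adjusted p = 0.0351 in CK-p25 PU.1 cKO and -0.26 ± 0.14, adjusted p = 0.207 in CK-p25. For Mcm5 and Mcm7, CK-p25 replicate 3 lay within the CK range, and the direct comparison of the 2 CK-p25 genotypes was not past the threshold (adjusted p = 0.767 and 0.745). Mcm3, Mcm4 and Mcm6 lay between -0.12 and 0.16 in CK-p25 and between -0.01 and 0.16 in CK-p25 PU.1 cKO, none called.

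Prim1 measured 3.26, 2.77 and 2.55 FPKM in CK, then 1.71, 1.49 and 2.07 with p25 and 1.59, 1.7 and 2 with p25 and PU.1 fl/fl (-0.49 ± 0.14, adjusted p = 0.0325 and -0.48 ± 0.14, adjusted p = 0.0339). Both CK-p25 genotypes lay below CK. Rrm2 measured 3.1, 3.14 and 2.16 in CK, then 2.28, 1.81 and 1.39, then 1.65, 1.45 and 0.818 in the same order, with -0.73 ± 0.21, adjusted p = 0.0279 in CK-p25 PU.1 cKO and -0.43 ± 0.21, adjusted p = 0.151 in CK-p25. The ribonucleotide reductase subunit Rrm1 was not called, at -0.21 ± 0.10 and -0.13 ± 0.10. Tyms came close to the threshold in both comparisons (-0.44 ± 0.15, adjusted p = 0.0541 and -0.44 ± 0.15, adjusted p = 0.0547), as did Chaf1b upward in CK-p25 (0.69 ± 0.24, adjusted p = 0.0582). Tk1 and Dut were at -0.35 ± 0.21 and 0.34 ± 0.17 in CK-p25 and were not called.

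**Figure D3:**
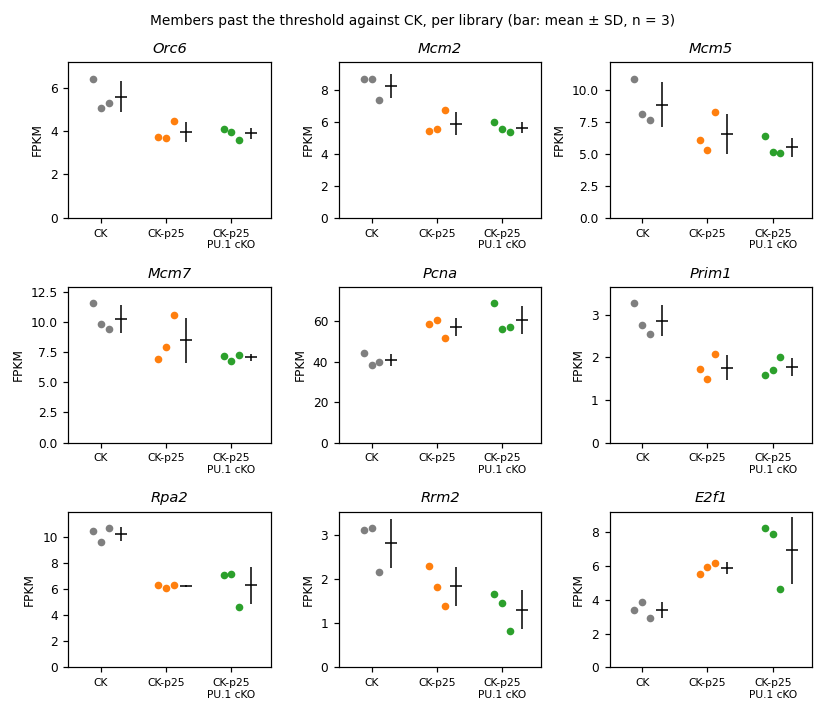
FPKM in each 4.5-month library for the 9 genes past the threshold against CK in either comparison, with points for libraries and bars for mean ± SD of 3 libraries. Means of Pcna and E2f1 are higher in both CK-p25 genotypes and those of the other 7 lower, with CK-p25 replicate 3, the rightmost orange point, within the CK range for Mcm5 and Mcm7.

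The remaining tested genes gave no call. Of the clamp loader, Rfc2 was at 0.54 ± 0.20 in CK-p25 and 0.31 ± 0.20 in CK-p25 PU.1 cKO, above CK in each library, with 52.1 FPKM in CK-p25 replicate 3 against 27.5 and 31.6 in the others. Rfc3, Rfc4 and Rfc5 lay between -0.16 and 0.07 in CK-p25 and between -0.24 and 0.05 in CK-p25 PU.1 cKO. Cdc45 was at -0.58 ± 0.26 and -0.52 ± 0.26, with Gins1, Gins2 and Gins3 between -0.06 and 0.25 in CK-p25 and between -0.40 and 0.10 in CK-p25 PU.1 cKO. Polymerase genes Pola1, Pola2, Pold1, Pold2 and Pole2 lay between -0.18 and 0.25 in CK-p25 and between -0.09 and 0.17 in CK-p25 PU.1 cKO, and Prim2 was at -0.35 ± 0.16 in CK-p25 and -0.48 ± 0.16 in CK-p25 PU.1 cKO (adjusted p = 0.0527). Cdt1, Fen1, Lig1, Uhrf1, Dnmt1 and E2f2, lay between -0.26 and 0.16 in CK-p25 and between -0.27 and 0.12 in CK-p25 PU.1 cKO. For the 39 genes, 95% intervals reached a median of 0.33 to each side.

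The 12 genes below the filter were listed between 0 and 1.22 FPKM and were not tested. In CK they read 0.131, 0.212 and 0.201 for Orc1, 0.447, 0.471 and 0.321 for Cdc6, 0.28, 0.393 and 0.0937 for Mcm10, 0.499, 0.502 and 0.505 for Pole, 0.174, 0.197 and 0.213 for Exo1 and 1.08, 1.02 and 0.762 for Chaf1a. They read 0.842, 1.22 and 0.587 for Ccne1, 0.98, 0.916 and 0.51 for Ccne2, 0.463, 0.542 and 0.339 for E2f8, 0.229, 0.339 and 0.271 for Brca1, 0.154, 0.0936 and 0.129 for Clspn and 0.332, 0.327 and 0.29 for Chek1. Of these genes, 6 had no CK-p25 library as high as CK: Cdc6 (0.0784, 0.06 and 0.248), Pole (0.238, 0.18 and 0), Ccne2 (0.155, 0.46 and 0.285), E2f8 (0.153, 0.209 and 0.231), Clspn (0.0609, 0.0109 and 0.0702) and Chek1 (0.152, 0.212 and 0.126). In CK-p25 PU.1 cKO 7 had no library as high as CK: Cdc6 (0.155, 0.0811 and 0.154), Pole (0.365, 0.188 and 0.172), Exo1 (0.117, 0.123 and 0.0538), Ccne2 (0.165, 0.178 and 0.152), Brca1 (0.2, 0.226 and 0.17), Clspn (0.0865, 0.063 and 0.00994) and Chek1 (0.0809, 0.251 and 0.164). In neither case did a gene of the 12 lie wholly above CK. Among 3706 genes of the table below the filter, with means down to the lowest of these 12, the groups did not overlap downward in 10.6% and 13% and upward in 9.82% and 15.5%, for CK-p25 and CK-p25 PU.1 cKO. Mcm10, Pole and Brca1 were listed at 0 in CK-p25 replicate 3. At these levels a difference may rest on few reads, and their number is unknown.

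**Figure D4:**
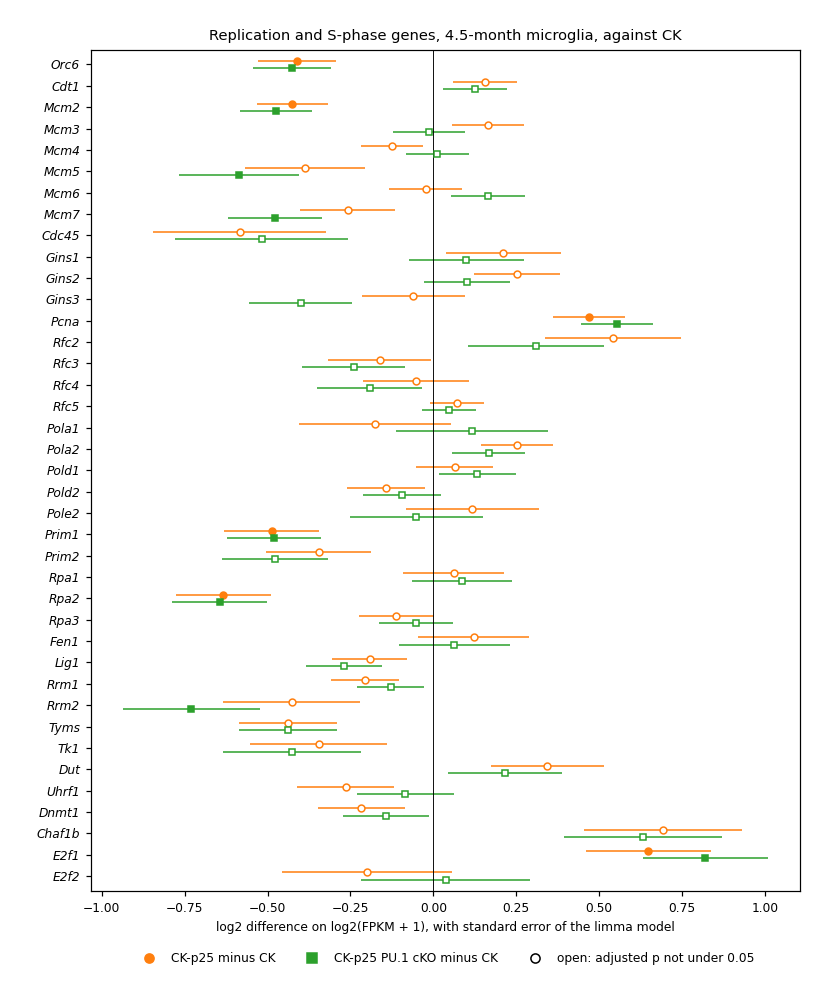
Log2 differences from CK on log2(FPKM + 1), with the standard error of the limma model, for the 39 tested genes, as circles for CK-p25 and squares for CK-p25 PU.1 cKO, filled where the adjusted p is under 0.05. Filled symbols are those of Orc6, Mcm2, Mcm5, Mcm7, Pcna, Prim1, Rpa2, Rrm2 and E2f1, and most others lie within 0.5 of 0.

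Calls in these comparisons were few and moved with single libraries. In CK-p25 against CK, the 4 lower genes became 1 without CK replicate 1 or 2 or CK-p25 replicate 1 or 2, 2 without CK replicate 3 or CK-p25 PU.1 cKO replicate 2, and rose to 7 once CK-p25 replicate 3 was left out, which added Mcm5, Mcm7 and Rfc3. That library is the only one of its run, and without it 2 genes were higher, Pcna and Rfc2, while E2f1 was not called. The 2 higher genes became 0 without CK replicate 2 and 1 without CK replicate 1 or 3 or CK-p25 replicate 2. Pcna was lost only without CK replicate 2 (adjusted p = 0.0526, with 0.00664 the lowest over the alternatives), and E2f1 in CK-p25 in 7 alternatives, no filter and each CK or CK-p25 replicate left out (adjusted p from 0.00482 to 0.106). In CK-p25 PU.1 cKO against CK, the 7 lower genes became 2 without CK replicate 1 or 2 or CK-p25 PU.1 cKO replicate 2, 3 without CK replicate 3 or CK-p25 PU.1 cKO replicate 1 or 3, and 11 without CK-p25 replicate 3, with 4 higher then. Pcna and E2f1 stayed called in each alternative there. By gene, the CK-p25 call of Mcm2 was lost without CK replicate 1 or 2 or CK-p25 replicate 1 or 2. Those of Orc6 and Prim1 were lost without any CK replicate, CK-p25 replicate 1 or 2, or CK-p25 PU.1 cKO replicate 2. In the other comparison Mcm2 was lost without CK replicate 2, Rrm2 without CK replicate 1 or 2 or CK-p25 PU.1 cKO replicate 2 or 3, and Mcm7 without any library of either group. Mcm5 was lost without any of those libraries or CK-p25 replicate 1, Orc6 without any of them but CK replicate 2, and Prim1 without any of them but CK-p25 PU.1 cKO replicate 3. Of all calls 56.3% were higher in CK-p25, and 45.6% after quantile normalization, with 57.2% and 45.9% in CK-p25 PU.1 cKO.

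In the lists around the set, counts of calls are read against the shares over all genes, 17.6% higher and 13.7% lower with p25, then 17.8% and 13.3% with p25 and PU.1 fl/fl. The counts of higher replication factors were near that background. Of 30 other replication factors tested 6 were higher and 0 lower in CK-p25, led by the nuclease-helicase gene Dna2 (1.49 ± 0.20), Rnaseh2c (0.43 ± 0.08), Rnaseh2b (0.51 ± 0.10) and the histone chaperone gene Supt16 (1.13 ± 0.24). In CK-p25 PU.1 cKO 5 were higher and 2 lower, led by Rnaseh2c (0.44 ± 0.08), Dna2 (1.08 ± 0.20), Rnaseh2b (0.46 ± 0.10) and Pole3 (0.71 ± 0.18). Of 15 other nucleotide metabolism genes tested 6 and 5 were higher and 0 lower, with Dck (0.67 ± 0.10 and 0.77 ± 0.10), Shmt2 (0.63 ± 0.11 and 0.49 ± 0.11), Cmpk1 (0.36 ± 0.08 and 0.43 ± 0.08) and Gart (0.36 ± 0.08 and 0.33 ± 0.08) for CK-p25 and CK-p25 PU.1 cKO. Among 14 other tested E2F and RB regulators 1 was higher and 3 lower with p25, while with p25 and PU.1 fl/fl 2 were higher and 4 lower. The repressor gene E2f6 rose (0.50 ± 0.10 and 0.37 ± 0.10), and E2f3 (-1.03 ± 0.22 and -0.94 ± 0.22) and Ccna2 (-0.64 ± 0.13 and -0.66 ± 0.13) fell in both, with Rbl1 lower in CK-p25 (-0.44 ± 0.13) and Lin54 in CK-p25 PU.1 cKO (-0.38 ± 0.11). Of 9 other checkpoint and repair genes tested 1 was lower in CK-p25, the mismatch repair gene Msh6 (-0.31 ± 0.09), and 0 passed in CK-p25 PU.1 cKO. Of 11 mitosis genes tested 1 was higher, Cdk1 (0.76 ± 0.19), and 2 lower, Ube2c (-0.86 ± 0.23) and Plk1 (-0.81 ± 0.26), in CK-p25, and 4 lower in CK-p25 PU.1 cKO, Ube2c (-1.25 ± 0.23), Top2a (-0.69 ± 0.18), Ccnb1 (-0.84 ± 0.22) and Plk1 (-0.85 ± 0.26). Without CK-p25 replicate 3 the E2F and RB count was 2 higher and 5 lower in CK-p25 and the replication factors counted 5 lower there, and in CK-p25 PU.1 cKO they counted 9 higher and 6 lower. The Msh6 call was lost without any of the CK libraries, CK-p25 replicate 1 or 2, or CK-p25 PU.1 cKO replicate 1 or 2, and the mitosis calls in CK-p25 fell to 0 higher without CK replicate 2 or 3 or CK-p25 replicate 1 and to 0 lower without CK replicate 1 or CK-p25 replicate 2. The microglial markers summed to 23028 to 25316 FPKM in CK and 13927 to 16302 in both CK-p25 genotypes, and the part of that in the results was not tested. Neutrophil markers reached 743 FPKM in CK-p25 replicate 2 and astrocyte markers 298 FPKM there, against at most 103 and 66.1 in CK.

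The question whether PU.1 loss alters the set within CK-p25 is addressed by the direct comparison of the 2 CK-p25 genotypes. Spi1 itself did not pass there (log2 difference -0.49, adjusted p = 0.745 in limma), and its groups overlapped. A lack of calls therefore cannot show that PU.1 loss leaves the set unchanged. No gene passed: in limma 0 of 39 were higher and 0 lower, and 0 of 39 had an unadjusted p under 0.05, against 671 of 10894 genes at that unadjusted level. Over all genes tested 0% were called in each direction, and no gene of the set was called in any alternative. The 3 smallest p values of the set belonged to Gins3 (-0.34 ± 0.16), Mcm6 (0.19 ± 0.11) and Mcm3 (-0.18 ± 0.11), each with an adjusted p of 0.745. Gins3 was at 1.78, 2.02 and 2.58 FPKM with p25 alone, above its values of 1.45, 1.7 and 1.25 FPKM with PU.1 fl/fl. The groups did not overlap for 0 of the 39 tested genes upward and 1 downward, Gins3, against 4.82% and 4.56% of all genes tested. Of the 12 genes below the filter they did not overlap for 1 upward, Mcm10, which is listed at 0 in CK-p25 replicate 3, and 2 downward, Orc1 and Exo1, against 3.48% and 3.75% of the 3706 genes. The 95% intervals of all 39 genes lay within 1 on the log2 scale, with bounds from -0.77 to 0.82 over the set and a median reach of 0.33 to each side.

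The set overlaps other genes in places. By the gene table of RefSeq, 14 of the 51 genes overlap another protein-coding gene, among them Mcm7 with Ap4m1 and E2f1 with Necab3, and the library kits do not mark strand. Pcna and Tyms have named pseudogenes, so reads could be shared with them. Levels of these genes are uncertain to that extent.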

How the data were processed

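RNA was measured in 15 libraries of sorted hippocampal microglia. The authors deposited FPKM values per gene, one table for 3 months and another for 4.5 months. Per the labels' protocols, cDNA was made with SMART-Seq v4 and libraries with Nextera XT. The submitters' processing notes name TopHat, Bowtie, Cufflinks 2.0.0 and the mouse build mm9. Depth is unknown, and no step here used counts. Each table was fitted on its own with limma 3.58.1 in R 4.3.3, with a variance trend, on log2(FPKM + 1) of genes averaging 1 FPKM or more over the table. The tests were two-sided, and p was adjusted by Benjamini-Hochberg over all genes tested, with a threshold of 0.05. Errors of log2 differences are standard errors. The script was tested on simulated data. Genes past the threshold are given in every library, and other genes in ranges. Of each further list up to 4 called genes with the smallest p are named. Some genes that this rule would name are not reported here. The members and lists were chosen with earlier results of these data known. The labels do not say whether libraries come from separate animals, so p may reflect technical spread. Alternatives varied the pseudocount, the filter, the scaling, the variance trend, the replicate block and the libraries included.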

Additional observations from a re-analysis of the deposited data

How the results depend on the processing

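At 3 months the count of replication genes lower in the labelled PU.1 cKO was 50, and it stayed between 45 and 50 when single libraries were left out, with 49 under no filter, 47 after median centring and 50 with the replicate block. In CK-p25 against CK, 2 genes were higher. The count was 3 with a pseudocount of 0.1, 3 with no variance trend, 1 with no filter and 0 to 3 with a library left out. The 4 lower became 6 with no filter, 5 after median centring, 5 with no variance trend, 2 with a filter at 5 FPKM, 2 after quantile normalization, 2 with the replicate block, 1 in a fit of only the compared libraries, and 1 to 7 with a library left out. In CK-p25 PU.1 cKO against CK, the 2 higher became 4 in a fit of only the compared libraries and 2 to 4 with a library left out. The 7 lower became 10 in that same fit, 10 with no variance trend, 9 after median centring and 8 after quantile normalization. They became 4 with a filter at 5 FPKM, 6 with no filter, 6 with the replicate block and 2 to 11 with a library left out. Between the CK-p25 genotypes, no gene of the set was called in any alternative, the replicate block included. The filter at 5 FPKM and the smaller fits test fewer genes or use fewer samples, and the cause of the other changes was not tested. No called difference of the set changed sign, while several differences that were not called did. Correlations between libraries do not settle whether the replicate numbers pair the samples. Same-numbered libraries correlated at -0.0487 to 0.166 at 3 months and at -0.0156 to 0.131 at 4.5 months. Libraries with different numbers correlated at -0.264 to 0.12 and at -0.216 to 0.154. Unknown depth limits the genes below 1 FPKM.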
